A study of Mus musculus with 8 samples.

Results

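The thioredoxin and peroxiredoxin system was followed through 10 genes, namely Txn1, Txnrd1, Txnrd2, Txnip, Srxn1, Prdx1, Prdx2, Prdx3, Prdx5 and Prdx6, taken by symbol from a count table of 24411 genes. All 10 were counted in every library and passed the filter on low counts. The tissue was small intestine of hUGT1 transgenic mice, a line that carries the human UGT1 gene locus, and both groups carried this genotype. At 14 days of age one group received vehicle and the other received arsenic, 10 mg/kg, and the labels give a time of 24 h. Each group held 12 mice, and the RNA of 3 mice was pooled per library, so that 4 vehicle libraries stood against 4 arsenic libraries. Neither the route of dosing, the sex of the pups nor the stretch of intestine is given in the labels, and p-values describe the spread between pools.

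Thioredoxin is a small protein that reduces disulfides in other proteins, and thioredoxin reductase, a selenium-containing flavoenzyme, recharges it with electrons from NADPH. Peroxiredoxins are abundant peroxidases that destroy hydrogen peroxide and organic peroxides through a reactive cysteine, and most of them are then reduced by thioredoxin. Sulfiredoxin rescues peroxiredoxins whose cysteine has been overoxidized, and TXNIP, the thioredoxin-interacting protein, binds thioredoxin and also restrains glucose uptake. Trivalent arsenicals bind closely spaced thiols, and the selenium-containing reductases are among the enzymes known to be inhibited by them.

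Total counts ran from 18786779 to 29417666 per library, and members had between 393 (Txnrd2) and 21685 (Prdx1) counts in a library. Levels are CPM, counts over library size after TMM scaling, and each mean carries the SD of its 4 pools (n = 4). A log2 change is arsenic over vehicle, with an adjusted p-value from edgeR's quasi-likelihood test (Benjamini-Hochberg over 15298 genes, threshold 0.05). The epithelial genes Vil1, Epcam and Fabp2 stood at 1823 ± 54.0, 1642 ± 35.8 and 2474 ± 219 CPM with vehicle, as the tissue label calls for. Pools differed in sex makeup within both groups: vehicle replicate 4 had next to no Ddx3y, a Y-linked gene (0.193 CPM), and arsenic replicate 3 had little Xist (9.82 CPM). No call on a member changed when these 2 libraries were left out together.

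Most of the system was higher in arsenic. Of the 10 members 7 rose, 2 fell (Txnip and Prdx5) and Txnrd2 did not pass the threshold, with a median log2 change of 0.59. Over all tested genes 32.3% were called higher and 33.0% lower, 65.3% in all, and the median log2 change was -0.03. The 4 arsenic pools lay wholly above or below the 4 vehicle pools for the 9 members called, and for 59.4% of all tested genes. A stricter test against a 1.5-fold change was passed by Txnrd1, Prdx1 and Prdx3, all of them higher, and by 10.6% of all tested genes, or 5.33% counting higher ones alone.

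**Figure D1:**
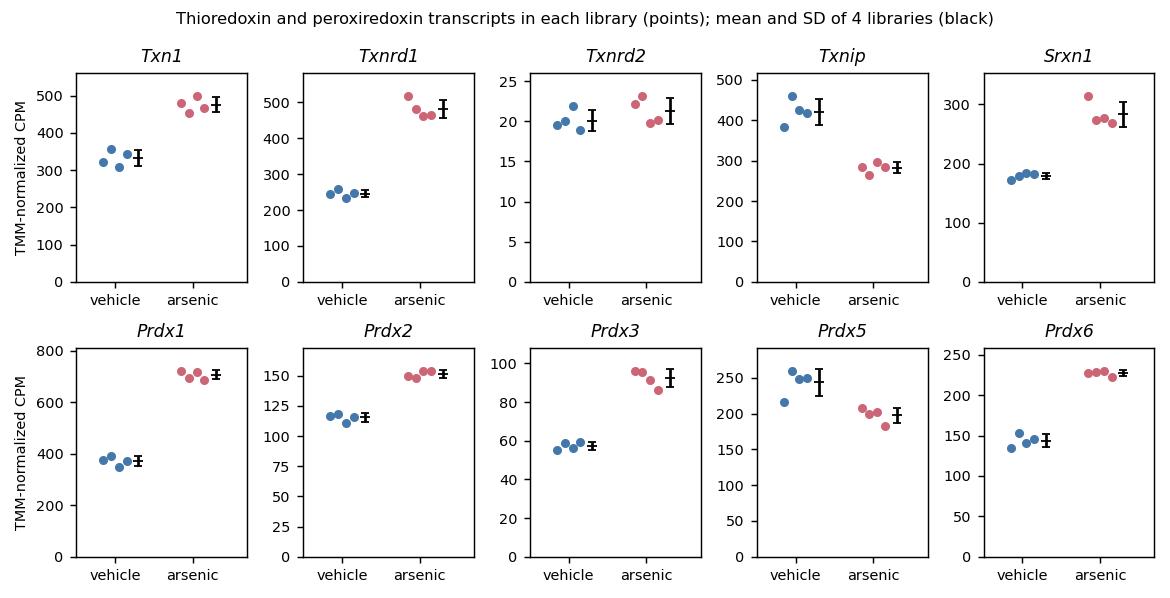
TMM-normalized CPM of each member in the 4 vehicle (blue) and 4 arsenic (red) libraries, with the mean and SD in black and each vertical axis starting at 0. The groups overlap for Txnrd2 alone, and arsenic lies below vehicle for Txnip and Prdx5.

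**Figure D2:**
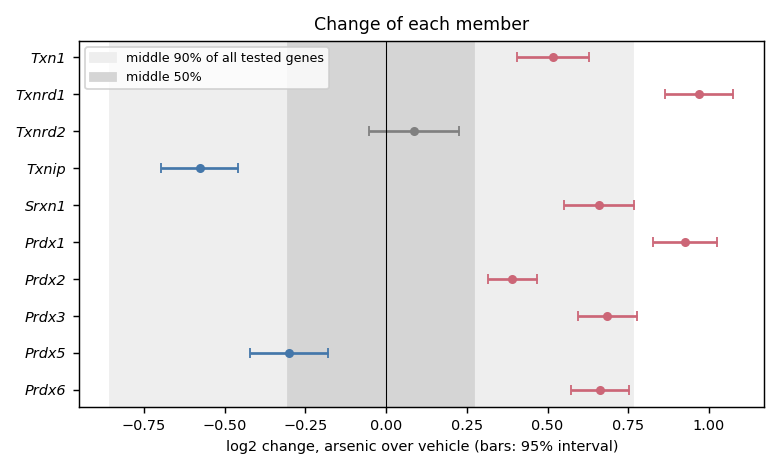
Log2 change of each member, arsenic over vehicle, with its 95% interval, over shading for the middle 90% and 50% of all tested genes. Txnrd1 (0.97) and Prdx1 (0.93) lie to the right of the wider band, and the interval of Txnrd2 covers 0.

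Cytosolic thioredoxin rose. Txn1 (chromosome 4 of mm10, 57943373 to 57956411, minus strand) stood at 321, 356, 308 and 343 CPM in the vehicle pools and at 481, 455, 500 and 466 CPM in the arsenic pools. Every arsenic pool was above every vehicle pool, and the means of 332 ± 21.5 and 475 ± 19.7 CPM differed by log2 0.52 (SE 0.05, adjusted p = 4.81e-07). Per kilobase of its main transcript, Txn1 was the most abundant member, at 316 ± 20.4 CPM per kilobase with vehicle and 452 ± 18.7 with arsenic.

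The 2 reductases among the members parted. Txnrd1, the cytosolic enzyme that recharges Txn1 (chromosome 10, 82833951 to 82897712, plus strand), was at 245, 258, 233 and 247 CPM with vehicle and at 519, 481, 463 and 464 CPM with arsenic. It showed the largest rise among the members, 1.96-fold (log2 0.97, SE 0.05, adjusted p = 3.44e-10), and 97.6% of tested genes had a lower log2 change. Txnrd2, the mitochondrial reductase (chromosome 16, 18426384 to 18479073, plus strand), was at 19.5, 20.1, 21.8 and 19.0 CPM and at 22.1, 23.2, 19.7 and 20.2 CPM. Its groups overlapped, with a log2 change of 0.09 (95% interval -0.05 to 0.23, adjusted p = 0.258). Within each library there were 10.7 to 13.0 counts of Txnrd1 per count of Txnrd2 with vehicle and 20.7 to 23.5 with arsenic. That ratio, which does not depend on scaling between libraries, was 1.85-fold higher in arsenic (exact permutation test, two-sided, p = 0.0286). This p is the smallest that 4 against 4 allows. The levels of both genes already fixed the separation, so the p adds nothing to their changes.

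Both reductases carry selenocysteine as the last amino acid but one, written by a TGA codon that would otherwise end the protein. The ends of both coding sequences are shown because this codon ties the reductases to the selenium genes described further on. They run to the true stop codon and were taken from GENCODE M21 transcripts, with the selenocysteine codon in capitals (chr10:82896037-82896039 and chr16:18477772-18477774, plus strand).
Txnrd1: atcctccagtctggctgcTGAggttaa
Txnrd2: cctactgtgactggttgcTGAggctaa
The codon is number 498 of 499 in the Txnrd1 transcript used and number 526 of 527 in that of Txnrd2, and in both a tgc codon for cysteine stands directly before it.

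Genes that make, insert or break down selenocysteine or carry selenium did not move together. Of 8 tested, 2 rose, 3 fell and 3 did not pass (median log2 0.08). Sepp1, which codes for the selenium carrier selenoprotein P and is now called Selenop, fell from 3465 ± 457 to 713 ± 68.5 CPM (log2 -2.28, adjusted p = 3.40e-11). Pstk, a kinase needed to form selenocysteine on its tRNA, rose by log2 0.45, while Scly, which frees selenium from selenocysteine, and Sephs2, which makes selenophosphate, fell by 0.22 and 0.15 on the log2 scale. With arsenic replicate 2 or 4 left out, 4 of the 8 were higher.

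Txnip fell as Txn1 rose. Txnip (chromosome 3, 96557957 to 96561883, plus strand) stood at 383, 461, 424 and 418 CPM with vehicle and at 285, 264, 295 and 285 CPM with arsenic. All arsenic pools were below all vehicle pools, and the difference of log2 -0.58 (SE 0.06, adjusted p = 3.24e-07) was a 1.49-fold lower level. Counts of Txn1 per count of Txnip went from 0.725 to 0.840 in the vehicle pools to 1.64 to 1.72 in the arsenic pools. This ratio was 2.14-fold higher in arsenic (exact permutation test, two-sided, p = 0.0286), the widest shift among the ratios tested. With every arsenic pool higher in Txn1 and lower in Txnip, the ratios had to lie apart. The p of this ratio therefore adds nothing to the changes of the 2 genes. An antisense gene, Gm15441, overlaps 606 exon bases of Txnip and had a mean of 27 counts, against 8617 for Txnip.

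TXNIP belongs to the alpha-arrestins, and its gene is a known target of the sugar-sensing transcription factors MLXIP (MondoA) and MLXIPL (ChREBP), which act with the partner MLX through a carbohydrate response element. The Txnip promoter holds such an element, a pair of CACGNG motifs set 5 bases apart. It is shown from RefSeq on GRCm38.p6 at chr3:96557857-96557903, plus strand, from 100 to 54 bases before the gene start, with the matched pair and its spacer in capitals.
Txnip: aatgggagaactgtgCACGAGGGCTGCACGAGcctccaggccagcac
On both strands, 16 of 32851 promoter windows of 300 bases (0.0487%) held such a pair. No other member's window did, and that of Arrdc4, a related alpha-arrestin gene also known as a target of these factors, held no such pair but 1 E-box (CACGTG, found in 7.15% of windows), 193 bases before its start.

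The relatives of Txnip fell, while the genes of its regulators went in both directions. Of 9 tested alpha-arrestins, carbohydrate-responsive factors and sugar-metabolism targets 7 fell, 1 rose and Pklr did not pass (log2 -0.04, adjusted p = 0.552), with a median of -0.20. Arrdc4 fell from 112 ± 6.15 to 63.2 ± 4.56 CPM (log2 -0.83, adjusted p = 3.28e-09), and Arrdc2, another alpha-arrestin, from 13.3 ± 0.478 to 6.91 ± 0.534 CPM (log2 -0.94). Arrdc1 fell by 0.30 on the log2 scale. Of the regulators, Mlxip fell by 0.20 and Mlxipl by 0.10 on that scale. The call on Mlxipl was near the threshold (adjusted p = 0.0477) and its pools overlapped. Mlx was the member of this list that rose, from 65.2 ± 3.07 to 116 ± 3.32 CPM (log2 0.82, adjusted p = 2.31e-10).

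Sulfiredoxin and 4 of the 5 peroxiredoxins rose. Srxn1, whose product repairs overoxidized peroxiredoxins (chromosome 2, 152105516 to 152111376, plus strand), was at 172, 178, 184 and 183 CPM with vehicle and at 315, 273, 276 and 268 CPM with arsenic. The groups did not overlap, arsenic replicate 1 was the highest pool, and the log2 change was 0.66 (SE 0.05, adjusted p = 2.67e-08). Prdx1, the main cytosolic peroxiredoxin (chromosome 4, 116685544 to 116700822, plus strand), was at 375, 393, 349 and 371 CPM with vehicle and at 724, 696, 719 and 688 CPM with arsenic. Its level was 1.90-fold higher (log2 0.93, SE 0.05, adjusted p = 2.91e-10), and 97.2% of tested genes had a lower log2 change. The rise of Srxn1 was smaller than that of Prdx1. The vehicle pools held 0.454 to 0.527 counts of Srxn1 per count of Prdx1 and the arsenic pools 0.384 to 0.435. This was 1.21-fold lower (exact permutation test, two-sided, p = 0.0286). Prdx3 (log2 0.69) and Prdx6 (0.66) rose about as much as Srxn1, Prdx2 (0.39) rose less, and Prdx5 fell.

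Among the other cytosolic members, Prdx2, which is also abundant in red blood cells and neurons (chromosome 8, 84969587 to 84974834, plus strand), was at 117, 118, 111 and 116 CPM and at 150, 148, 154 and 154 CPM. Its log2 change of 0.39 (SE 0.04, adjusted p = 1.48e-07) was the smallest rise called among the members, and the groups did not overlap. Prdx6, a peroxiredoxin with a single reactive cysteine that relies on glutathione and also has a phospholipase activity (chromosome 1, 161240112 to 161251219, minus strand), was at 135, 154, 141 and 146 CPM and at 228, 229, 231 and 223 CPM. It was 1.58-fold higher (log2 0.66, SE 0.04, adjusted p = 3.29e-09). Prdx1 rose by more than either of them. Its count ratio to Prdx2 was higher by 0.54 on the log2 scale in arsenic and its ratio to Prdx6 by 0.26. Exact permutation tests, two-sided, gave p = 0.0286 for both. The levels of the single genes already fixed both separations, so these p-values add nothing to the changes of the genes.

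Prdx3, the peroxiredoxin of the mitochondrial matrix (chromosome 19, 60864051 to 60874556, minus strand), was at 55.2, 59.0, 56.3 and 59.5 CPM with vehicle and at 96.3, 95.5, 91.6 and 86.4 CPM with arsenic. It was 1.61-fold higher (log2 0.69, SE 0.04, adjusted p = 2.67e-09) without overlap. Prdx5, found in mitochondria, peroxisomes and cytosol (chromosome 19, 6906697 to 6910106, minus strand), went the other way, from 216, 260, 249 and 249 CPM to 208, 199, 202 and 183 CPM. All arsenic pools were lower, though vehicle replicate 1 at 216 CPM stood close to arsenic replicate 1 at 208 CPM, and the log2 change was -0.30 (SE 0.06, adjusted p = 0.000273). Counts of Prdx3 per count of Prdx5 were 1.98-fold higher in arsenic (exact permutation test, two-sided, p = 0.0286). They stood at 0.226 to 0.256 in the vehicle pools against 0.454 to 0.480. Since Prdx3 rose and Prdx5 fell in all pools, this separation was also fixed beforehand, and its p adds nothing. The other ratio tested, of Txnrd1 to Txn1, was 1.37-fold higher, with the same p. Its separation too followed from the levels of both genes, so its p adds nothing. After Benjamini-Hochberg adjustment over the 7 ratios each stayed at 0.0286.

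**Figure D3:**
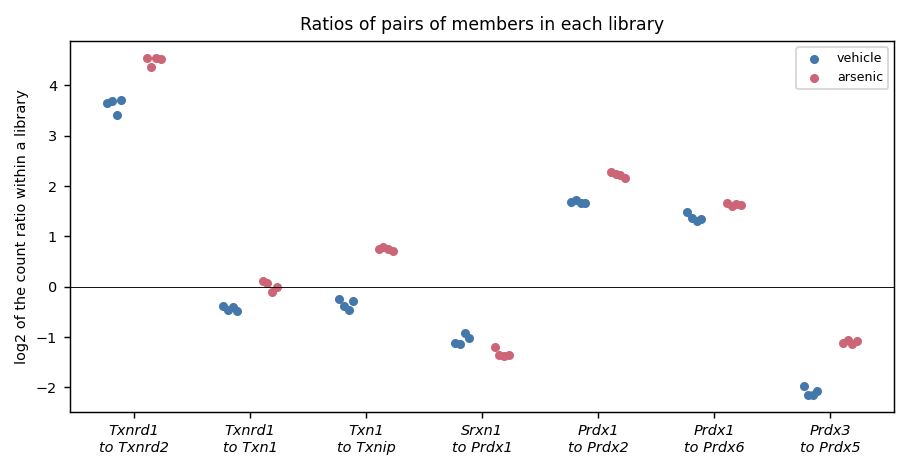
Log2 of the ratio of counts of 2 members within each library, vehicle in blue and arsenic in red, with 4 libraries per group. The groups are apart in each of the 7 pairs, and only the ratio of Srxn1 to Prdx1 is lower in arsenic.

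Several of these genes have overlapping neighbours or near-identical copies. Prdx5 shares 409 exon bases with Trmt112 (mean 383 counts) and Prdx2 shares 177 with Rnaseh2a (mean 419 counts) and 173 with Junb (mean 1622 counts), all on the opposite strand, and how the counting treated strand is not stated. Among GENCODE transcripts, 2 processed pseudogenes matched Prdx1 at 95% identity or more over at least 100 bases (up to 98.3% over 597 bases), and Prdx2 and Txn1 had 1 each. Reads shared with such copies cannot be apportioned here. Prdx6b, a close copy of Prdx6, had a mean of 1.75 counts.

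The makeup of the peroxiredoxin transcripts shifted toward Prdx1. Per kilobase of main transcript, and with Prdx4 of the secretory pathway included, the 6 peroxiredoxins summed to 554 ± 24.3 CPM per kilobase with vehicle and 744 ± 17.2 with arsenic. Prdx5 was the largest share with vehicle, at 34.8% ± 1.79, ahead of Prdx1 at 29.3% ± 1.17. With arsenic Prdx1 held 41.4% ± 0.213 and Prdx5 21.0% ± 0.719. Shares of Prdx2 were 12.9% ± 0.503 and 12.6% ± 0.420, and those of Prdx6 10.9% ± 0.147 and 12.8% ± 0.188. The lengths matter for this order: over all annotated exons, a length chosen after seeing the data, Prdx1 had the larger mean share in both groups (34.3% ± 1.30 and 46.7% ± 0.310), and Prdx5 went from 32.0% ± 1.72 to 18.6% ± 0.588.

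**Figure D4:**
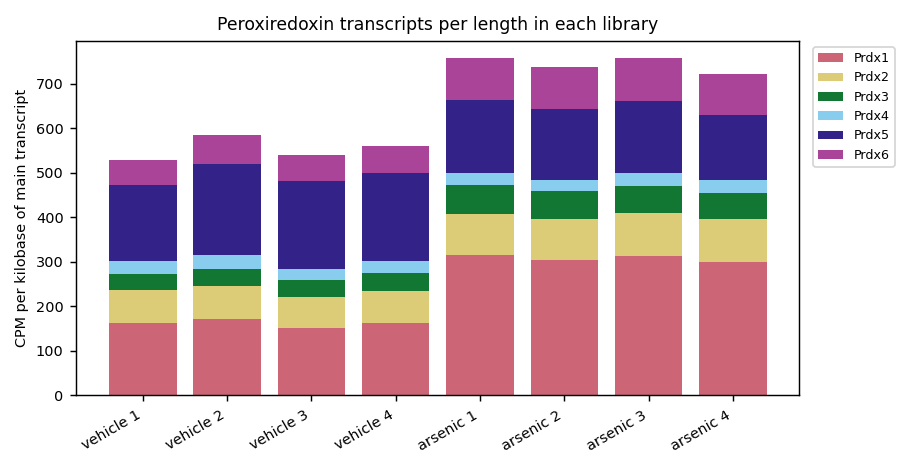
Peroxiredoxin transcripts in CPM per kilobase of the longest principal transcript, stacked by gene for each of the 8 libraries, with the axis starting at 0. Prdx1 is the tallest segment in the 4 arsenic libraries and Prdx5 in the 4 vehicle libraries.

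Across all members the order of levels per kilobase with vehicle ran from Txn1 (316 ± 20.4 CPM per kilobase) through Prdx5 (193 ± 15.3), Prdx1 (162 ± 7.96), Txnip (151 ± 11.5), Prdx2 (71.6 ± 2.14), Txnrd1 (69.6 ± 2.98), Srxn1 (63.8 ± 1.91), Prdx6 (60.2 ± 3.35) and Prdx3 (38.9 ± 1.40) to Txnrd2 (6.99 ± 0.436). Neighbours in this order whose libraries overlapped were Prdx5 and Prdx1, Prdx1 and Txnip, Prdx2 and Txnrd1, and Srxn1 and Prdx6. With arsenic Prdx1 (308 ± 7.49) came after Txn1 (452 ± 18.7), and Txnrd1 (136 ± 7.43), after Prdx5 (157 ± 8.51), had passed Txnip (101 ± 4.75) and Prdx2 (94.0 ± 1.93). Among the neighbours with arsenic, libraries of Prdx5 and Txnrd1, Txnip and Srxn1, Srxn1 and Prdx6, and Prdx6 and Prdx2 overlapped. By all annotated exons Txn1 stayed first and Txnrd2 last in both groups, and Txnip was second with vehicle.

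Several members are known targets of NRF2, the transcription factor that answers thiol-reactive compounds after release from its inhibitor KEAP1, among them Txnrd1, Srxn1 and Prdx1. The genes of NRF2 control went in both directions. Of 9 tested, 2 rose, 2 fell and 5 did not pass (median log2 -0.04). Nfe2l2, which codes for NRF2, rose from 242 ± 16.2 to 287 ± 8.33 CPM (log2 0.25, adjusted p = 0.000370), and Cul3, the scaffold of its degradation, rose by log2 0.25. Bach1, a repressor of the same DNA elements, fell from 175 ± 12.6 to 126 ± 7.61 CPM (log2 -0.48, adjusted p = 1.88e-06). Maff, a small MAF partner, was called lower (29.4 ± 2.77 against 23.8 ± 4.48 CPM, adjusted p = 0.0224), though its pools overlapped. The call was lost on leaving out replicate 2 or 4 of vehicle, or replicate 3 or 4 of arsenic, each of which left 1 gene of the list lower, and over all alternatives the adjusted p of Maff ran from 0.00697 to 0.157.

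Promoter windows in the RefSeq table, from 250 bases before to 50 bases after a gene start on GRCm38.p6, were found for 9 of the 10 members (11 windows, 3 of them for Txnrd1), all but Prdx6. They were searched on both strands for the core of the antioxidant response element bound by NRF2 (TGACNNNGC, in 12.4% of all windows) and for the TGAGTCA core shared by AP-1 and NRF2-type sites (in 5.20%), which can overlap the first. The stretches with matches before the annotated starts are shown because these 3 genes are the known NRF2 targets named above, with matches in capitals (Srxn1 at chr2:152105407-152105500, Prdx1 at chr4:116685349-116685489 and the second Txnrd1 window at chr10:82859099-82859137, all plus strand).
Srxn1: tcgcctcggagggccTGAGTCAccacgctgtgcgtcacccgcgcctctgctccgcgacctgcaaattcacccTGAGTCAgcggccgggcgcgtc
Prdx1: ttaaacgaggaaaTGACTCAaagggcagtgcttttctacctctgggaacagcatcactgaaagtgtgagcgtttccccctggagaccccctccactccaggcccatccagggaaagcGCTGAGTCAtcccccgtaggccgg
Txnrd1: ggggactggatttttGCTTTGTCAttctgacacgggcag
In Srxn1 the TGAGTCA core lies 102 and 45 bases before the start. In Prdx1 it lies 237 and 131 bases before the start, and the nearer copy overlaps a match to the antioxidant response element core. A match to that core also lies 28 bases after the Srxn1 start. The Txnrd1 match begins 92 bases before the gene start on which its window is set. This stretch lies inside the annotated span of Txnrd1 (82833951 to 82897712), not before it. The other windows of Txnrd1 held neither motif. The windows of Txn1, Txnrd2, Txnip, Prdx2, Prdx3 and Prdx5 held neither motif. The window of Arrdc4 held a match to the antioxidant response element core 28 bases before its start. The part of NRF2 in the changes of these genes was not tested.

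Among the mitochondrial genes, the thioredoxin Txn2, the glutaredoxin Glrx5 (log2 0.78) and Prdx3 rose, and Prdx5, which is found there in part, fell. Neither Txnrd2 nor the glutaredoxin Glrx2 (log2 -0.13, adjusted p = 0.0738) passed the threshold. Txn2 went from 104 ± 5.79 to 177 ± 5.89 CPM (log2 0.77, adjusted p = 9.92e-10), alongside Prdx3 (log2 0.69) and the matrix superoxide dismutase Sod2 (log2 0.56), while Txnrd2 was at 0.09. All 19 nuclear-coded mitochondrial genes listed as a gauge rose, with a median log2 change of 0.53, and their summed level was 6330 to 6837 CPM in the vehicle pools and 9097 to 9666 CPM in the arsenic pools. Tomm40 (log2 1.26), Timm23 (0.90) and Phb (0.86) of import and inner membrane and the citrate synthase Cs (0.85) had the largest changes. The part of this rise in the changes of Txn2 and Prdx3 was not tested.

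Other thioredoxin and glutaredoxin relatives were divided. Of 12 tested, 6 rose, 1 fell and 5 did not pass (median log2 0.17). Among those that did not pass was another reductase gene, Txnrd3. It stood at 10.6 ± 0.365 CPM with vehicle and 10.2 ± 1.19 with arsenic (log2 -0.05, adjusted p = 0.613). Txnl1, a thioredoxin-like protein bound to the proteasome, rose from 70.3 ± 0.993 to 105 ± 4.16 CPM (log2 0.58), and Glrx5, which serves iron-sulfur cluster assembly in mitochondria, rose by log2 0.78. Glrx, the cytosolic glutaredoxin that removes glutathione from proteins, fell from 143 ± 11.1 to 85.6 ± 4.48 CPM (log2 -0.75, adjusted p = 1.43e-08). In the secretory pathway 7 of 14 genes rose and 3 fell (median log2 0.07). Tmx2 (log2 0.44), Txndc11 (0.41), Txndc5 (0.38) and the disulfide-forming oxidase Qsox1 (0.32) were among the genes that rose. Prdx4, the peroxiredoxin of this compartment, stood at 27.7 ± 1.62 and 27.4 ± 2.68 CPM (adjusted p = 0.795).

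Among the proteins that thioredoxin serves or binds, 2 of 8 rose, 3 fell and 3 did not pass (median log2 -0.04). Both genes that rose code for ribonucleotide reductase, which makes DNA precursors with electrons from thioredoxin: Rrm2 rose by log2 1.54 (adjusted p = 3.29e-12) and Rrm1 from 67.5 ± 4.26 to 117 ± 3.35 CPM (log2 0.79). Beside them, all 6 listed markers of dividing cells rose, and their summed level was 598 to 695 CPM against 981 to 1043 CPM. In whole tissue, more cells of a type cannot be told apart from more RNA per cell. The part of cell division in these results was not tested. Msra, which repairs oxidized methionine with thioredoxin, fell by 0.31 on the log2 scale, and Map3k5, the stress kinase ASK1 that thioredoxin holds inactive, by 0.36. The sestrins, stress-induced proteins linked to peroxiredoxin upkeep and growth control, fell in all 3 cases, Sesn2 from 32.2 ± 1.69 to 17.3 ± 0.904 CPM (log2 -0.89, adjusted p = 3.10e-09), Sesn1 by 0.27 and Sesn3 by 0.29 on the log2 scale.

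Enzymes that act on the same oxidants gave a divided picture. Of 10 dismutases, catalase and glutathione peroxidases, 4 rose, 3 fell and 3 did not pass (median log2 -0.01). The gastrointestinal glutathione peroxidase Gpx2 rose from 56.0 ± 5.60 to 260 ± 25.8 CPM (log2 2.21, adjusted p = 7.24e-12) and the cytosolic dismutase Sod1 from 266 ± 14.0 to 484 ± 15.6 CPM (log2 0.86). The secreted Gpx3 fell from 4310 ± 326 to 1538 ± 119 CPM (log2 -1.49, adjusted p = 7.96e-11). Among oxidases that give off superoxide or hydrogen peroxide, 3 of 11 tested rose and 7 fell (median log2 -0.27). The monoamine oxidases Maoa (30.3 ± 1.91 to 121 ± 10.3 CPM, log2 1.99) and Maob (log2 0.71) rose, and xanthine dehydrogenase Xdh fell by 0.82 on the log2 scale. Cybb, the phagocyte oxidase subunit, fell by 0.70, and beside it 4 of 5 macrophage markers fell, their summed level at 292 to 301 CPM against 185 to 224 CPM. The part of fewer macrophages in the fall of Cybb was not tested.

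**Figure D5:**
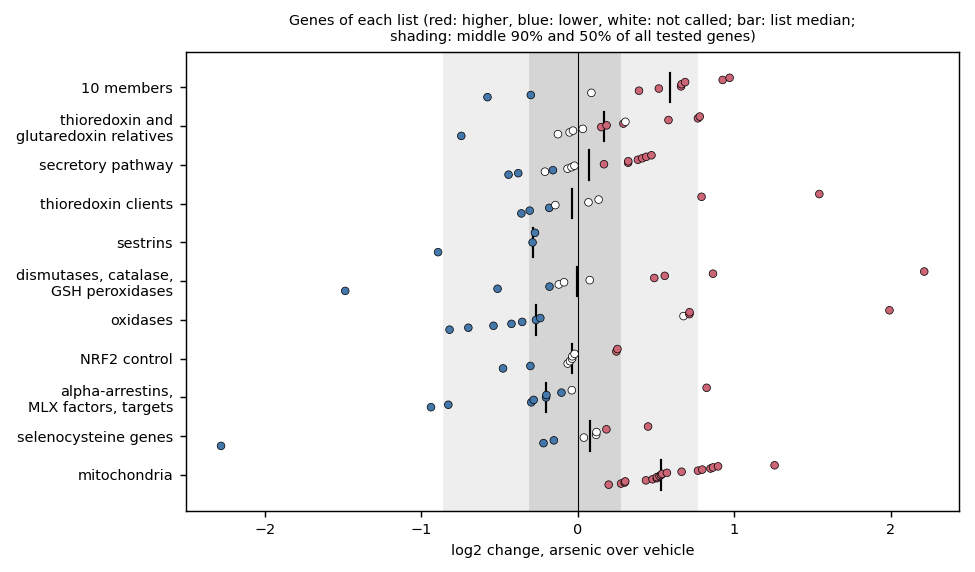
Log2 change of each tested gene by list (red higher, blue lower, white not called), with list medians as bars and shading for the middle 90% and 50% of all tested genes. The 19 mitochondrial genes all lie to the right of 0 and the 3 sestrins to the left.

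Markers of other cells moved as well. The red cell markers Alas2 and Hemgn fell from 4.04 ± 0.345 to 1.80 ± 0.667 CPM and from 2.01 ± 0.363 to 1.15 ± 0.333 CPM, while Prdx2 rose. All 4 tested T cell markers fell (15.9 to 16.7 CPM in sum against 8.68 to 10.3 CPM), as did all 4 endothelial markers (302 to 333 against 219 to 232 CPM), and the 5 smooth muscle markers rose (1641 to 1820 against 1955 to 2387 CPM). Epithelial markers were divided, 4 higher and 3 lower of 8 (19531 to 23405 against 17609 to 20568 CPM), and goblet cell markers had 2 higher and 1 lower of 5 (4550 to 5385 against 4362 to 5376 CPM). Pancreatic acinar genes were present in every pool and overlapped between groups (2899 to 5512 against 2570 to 5811 CPM, 1 of 6 lower), and hepatocyte genes were low (at most 72.3 CPM in sum in any pool, 1 higher and 2 lower of 5). Their part in the changes of the members was not tested.

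The genes whose levels ran most nearly parallel to Txnrd1 over the 8 libraries, of 11353 with a mean of at least 5 CPM, were the epithelial keratin Krt8 (Pearson r 0.999), Gstm4 (0.999), the proteasome subunit Psmc2 (0.999) and Sod1 (0.999). For Txnip they were Lpar3 (0.993), Arel1 (0.993), Zrsr1 (0.992) and Ctbs (0.992). These values describe 8 libraries that fall into 2 groups, share their depth and scaling, and are dominated by the step between the groups. In the authors' deposited table the log2 changes were 0.98 for Txnrd1, 0.94 for Prdx1 and -0.565 for Txnip, and for all members they lay 0.01 above those given here.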

How the data were processed

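The authors deposited raw counts per gene symbol, made with bcl2fastq 2.20, STAR 2.7.9a and the mm10 build, per the submitters' processing notes. For the read counter, the annotation and strandedness: not given in the sources used here. Libraries came from the Illumina Stranded mRNA kit, per the labels' protocols. The authors' deposited comparison (log2 fold changes and p-values, with DESeq2 1.34.0 named in those notes) was only set beside the results. The other deposited tables, of normalized and log-transformed values, were not used.

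Groups came from the treatment label, and replicate numbers only name libraries. Genes were kept by filterByExpr (minimum count 10, minimum total 15) and tested with edgeR 4.0.16 in R 4.3.3 (TMM, glmQLFit, glmQLFTest, two-sided, group as the only term). SE is the absolute log2 change over the square root of F. DESeq2 1.42.0 and limma 3.58.1 gave alternatives. Ratios of members were tested by exact permutation. Lengths, positions and overlaps came from GENCODE M21, the length being the longest principal transcript, and copies from blastn 2.17.0. The test was checked on simulated counts.

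The members and gene lists were chosen with earlier results of these data known. The text names all members, up to 4 genes with the smallest p of each pathway list, the genes most parallel to the members with the largest rise and fall, overlapping genes and copies. Txnrd3, Pklr, Mlxip, Mlxipl, Glrx2, Prdx4 and Sod2 were named after their values were seen or as checks. The marker genes Vil1, Epcam, Fabp2, Alas2 and Hemgn and the genes of the other observations were named in the same way. Some overlapping genes and marker genes are not reported here.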

Additional observations from a re-analysis of the deposited data

Results flagged for a closer look

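Of 34 groups of 4 values examined (members and member ratios, by group), 1 held a library far from the rest, where chance alone flags about 1 in 20. Arsenic replicate 1 had 0.435 counts of Srxn1 per count of Prdx1, against 0.384 to 0.393 in the other arsenic pools. Without it the log2 difference of this ratio between arsenic and vehicle was -0.31 in place of -0.27.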

How the results depend on the processing

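In 16 alternatives (other scalings, filters and tests, each library left out, and vehicle replicate 4 with arsenic replicate 3 left out together) the members' calls stood at 7 higher and 2 lower, and all 160 values kept their direction and their side of the threshold. With 1 library left out, the log2 change of Prdx1 ran from 0.91 to 0.97, that of Txnip from -0.62 to -0.52 and that of Txnrd2 from 0.05 to 0.14 (adjusted p from 0.0878 to 0.575). Genes called over the whole table ran from 4626 to 5168 higher and from 4591 to 5408 lower. Ratios of members kept their sign and moved by less than 1 SD, though 3 against 4 libraries cannot give an exact p below 0.0571. For the NRF2 control list the genes called lower went from 2 to 1 in DESeq2 and in the robust fit. They did so too without vehicle replicate 4 and arsenic replicate 3 together. Their number ran from 1 to 2 with single libraries left out and from 1 to 3 over all 16 alternatives. Genes called higher in the selenocysteine list went from 2 to 4 with RLE scaling, without a filter and with 1 CPM required in 4 libraries, and ran from 2 to 4 with single libraries left out. Upper-quartile scaling gave 2 in place of 1 lower among the thioredoxin relatives. The causes were not tested. Goblet, acinar and hepatocyte marker calls also moved with single libraries. No paired analysis was possible because the labels give no replicate numbers shared by the groups. Counts limit Txnrd2 most, with 393 to 620 per library.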

Other observations

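The transcripts of selenoproteins, which include the thioredoxin reductases, spread widely. GENCODE annotates a selenocysteine codon in 24 mouse genes, of which 23 were tested here, and this set was looked at after the members' values were known. Of these, 7 rose, 7 fell and 9 did not pass (edgeR, adjusted over all genes), with a median log2 change of -0.02. Gpx2 (log2 2.21) and Txnrd1 (0.97) rose most, followed by Selenoh (0.72, counted under the symbol 2700094K13Rik), Selenos (0.57, counted as Vimp), Selenot (0.52, as Selt), Gpx4 (0.49) and Selenof (0.34, as Sep15). At the other end were Dio3 and Dio1, which code for deiodinases that switch thyroid hormone on or off, and the secreted Selenop and Gpx3. The third deiodinase gene, Dio2, stood at 1.47 ± 0.409 and 1.54 ± 0.250 CPM (log2 0.07, adjusted p = 0.774). Dio3 fell from 2.97 ± 0.261 to 0.161 ± 0.0664 CPM (log2 -4.23, adjusted p = 9.54e-10), Selenop by 2.28, Dio1 from 129 ± 4.45 to 39.3 ± 5.60 CPM (log2 -1.72, adjusted p = 6.11e-11) and Gpx3 by 1.49 on the log2 scale. Gpx1 changed by log2 -0.12 and missed the threshold (adjusted p = 0.0588), and Selenow (Sepw1) stood at 124 ± 8.89 and 122 ± 1.63 CPM (adjusted p = 0.745). The part of selenium supply in these changes was not tested.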
